A study of Mus musculus with 18 samples.

Results

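The genes for the main apolipoproteins and for the protein that loads lipid onto apolipoprotein B were followed in mouse liver, by name, in both deposited tables: Apoa1, Apoa2, Apoa4, Apoa5, Apob, Apoc1, Apoc2, Apoc3, Apoe and Mttp, 10 genes of the 54532 listed. All were found in both tables, and all 10 passed the filter on low values (a mean FPKM of at least 0.5) without and with fenofibrate. RNA was sequenced from the livers of 18 wild-type C57BL/6J male mice, 1 library per mouse. The animals were put on a control diet (Ctrl) or a diet with 99% of its riboflavin, vitamin B2, removed (B2D) from 4 wk of age, and all were fasted overnight before harvest. In the first experiment, 5 Ctrl and 5 B2D mice were kept on the diets for 1 month. In the second, 4 mice of each diet stayed on it for 9 wk and received fenofibrate, an agonist of the nuclear receptor PPARα, by daily gavage at 300 mg/kg from week 7 to week 9 and again 2 h before harvest (Ctrl+FF and B2D+FF). Fenofibrate with its gavage, the length of feeding, the age at harvest and the table in which values were normalized all differ between the experiments. Their parts in any difference between the tables therefore cannot be told apart, and levels are set side by side across them with no test. Levels are FPKM, fragments per kilobase of gene length scaled for library size, which allows genes of unequal length to be compared, and differences are on the log2(FPKM + 1) scale.

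Apolipoproteins are the proteins of the lipid particles of plasma. Apolipoprotein B is the backbone of very low-density lipoprotein (VLDL), onto which the microsomal triglyceride transfer protein, encoded by Mttp, loads lipid in the endoplasmic reticulum of hepatocytes. Apolipoproteins A-I and A-II form high-density lipoprotein (HDL), apolipoprotein E is a ligand for lipoprotein receptors, and the C apolipoproteins and apolipoprotein A-V act on lipoprotein lipase and on particle uptake. Apolipoprotein A-IV is made by the gut and, in mice, also by the liver, where it rises with hepatic triglyceride. Several of these genes are known targets of PPARα, HNF4α or CREB3L3.

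The 10 genes lie at 5 places in GRCm38, the build of the deposited coordinates. A cluster on chromosome 9 holds 4 of them: Apoa1 (46228580 to 46230466, plus strand), Apoc3 (46232933 to 46235636, minus strand), Apoa4 (46240696 to 46243459, plus strand) and Apoa5 (46268633 to 46271919, plus strand). A cluster on chromosome 7 holds 3: Apoc2 (19671579 to 19677941, minus strand), Apoc1 (19689481 to 19692660, minus strand) and Apoe (19696109 to 19699188, minus strand). Apoa2 lies on chromosome 1 (171225054 to 171226379), Apob on chromosome 12 (7977648 to 8016835) and Mttp on chromosome 3 (138089854 to 138144968). RefSeq promoter entries on GRCm38.p6 were matched by symbol for 8 of the 10 members, 12 entries in all. Windows of 250 bases before the RefSeq start were read, and the bases of them that lie before the start of the gene in the deposited table are shown (250 for Apoa5, from the first of its entries, 221 for Apob, 200 for Apoa1 and 102 for Apoa4). They are given for 3 genes of the chromosome 9 cluster, since Apoa4 was the member that differed between the diets under fenofibrate (and not without it) while its neighbours did not pass the test, and for Apob, the backbone of VLDL. Capitals mark a nuclear receptor half-site (AGGTCA as the basic form, AGTTCA as a variant of it, GGGTCA as another and GGTTCA as the last, on either strand) or a TATA box (TATAAA, on either strand).
Apoa4, chr9:46240594-46240695, plus strand: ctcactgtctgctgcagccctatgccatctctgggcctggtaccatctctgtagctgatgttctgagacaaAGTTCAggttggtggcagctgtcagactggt
Apoa1, chr9:46228380-46228579, plus strand: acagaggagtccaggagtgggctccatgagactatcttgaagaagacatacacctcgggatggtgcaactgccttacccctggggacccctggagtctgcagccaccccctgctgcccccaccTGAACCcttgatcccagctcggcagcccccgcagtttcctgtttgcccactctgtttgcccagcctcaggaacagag
Apoa5, chr9:46268358-46268607, plus strand: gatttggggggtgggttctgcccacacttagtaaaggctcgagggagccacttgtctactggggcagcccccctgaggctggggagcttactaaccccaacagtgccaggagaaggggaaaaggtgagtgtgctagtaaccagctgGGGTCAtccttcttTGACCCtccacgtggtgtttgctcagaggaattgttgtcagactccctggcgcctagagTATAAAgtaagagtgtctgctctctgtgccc
Apob, chr12:7977427-7977647, plus strand: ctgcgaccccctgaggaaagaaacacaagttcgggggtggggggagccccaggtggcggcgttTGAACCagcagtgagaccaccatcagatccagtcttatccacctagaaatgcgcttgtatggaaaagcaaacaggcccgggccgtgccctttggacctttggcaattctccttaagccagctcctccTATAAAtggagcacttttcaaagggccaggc
The Apoa4 window held a single half-site, AGTTCA, 179 to 174 bases before the RefSeq start. The Apoa1 window held 2 half-sites, of which 1 lies in the bases shown, and Apoa5 held 2 as well, with 1 TATA box 31 to 26 bases before its start. At least 1 half-site was found in 10 of the 12 member entries, from 7 members, while 38.6% of all 32851 promoter windows of the same length held it. The entries of Apoa5 overlap each other, as do entries 2 and 3 of Apoe, so the 12 are not separate windows. These entries of Apoe and the entry of Mttp lie inside the gene as deposited. None of the 12 held the HNF4-type motif CAAAGTCCA, present in 0.384% of all windows, or 2 half-sites in tandem with 1 base between them, present in 0.164%. The CRE half-site TGACGT stood only in the entry of Mttp among the 12, against 6.47% of all windows. These are matches of letters, described without any measure of binding.

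Between 15320729 and 21898502 reads were counted on genes per library, and the mean Pearson correlation of a library with the others of its group was between 0.966 and 0.988. The 10 genes together held between 6.14% and 9.07% of the summed FPKM of a library. Of the hepatocyte markers, 7 of 8 were matched by symbol, and their summed level was between 17124 and 41425 FPKM in every library. Pancreatic acinar markers summed to at most 0.227 FPKM. Among the 5 enterocyte markers, checked because Apoa4 and Apob are also gut genes, the levels of Vil1, Sis, Alpi and Lct were below 0.1 FPKM on average in both tables, and Fabp2, which liver also expresses, was present at 160 to 219 FPKM on average per group. In bulk RNA, fewer cells of a type and less RNA per cell cannot be told apart.

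Ctrl 5, B2D 3 and B2D+FF 2 stood apart for several members. Ctrl 5 had the lowest value of its group for 7 of the 10 genes and the highest for Apob and Mttp. B2D 3 was lowest for 5 (Apoa1, Apoa2, Apoa5, Apoc3 and Apoe) and, again, highest for Apob and Mttp. B2D+FF 2 was lowest for 6 and highest for none. Apob and Mttp are also the longest of the 10 genes, at 13934 and 6206 bases of exon. Over each whole library, without the members, the median of the protein-coding genes of 5000 bases or more was set against that of the genes of 1000 bases or less, each relative to the mean of its table. This long-minus-short difference was 0.27 in Ctrl 5 (the other Ctrl libraries lay between -0.34 and -0.11), 0.52 in B2D 3 (the other B2D libraries, between -0.24 and 0.12) and 0.02 in B2D+FF 2, within the range of its group. Across the 18 libraries, relative to their group means, Apob was higher where this difference was higher (Pearson r = 0.93, Spearman rho = 0.89, and r = 0.86 without the 2 farthest libraries) and Apoc3 was lower (r = -0.82, rho = -0.82, and r = -0.64), where the points share the library and its depth, so these values are a description. For Apoa1 the r was -0.41 with all libraries and -0.18 without the 2 farthest.

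**Figure D1:**
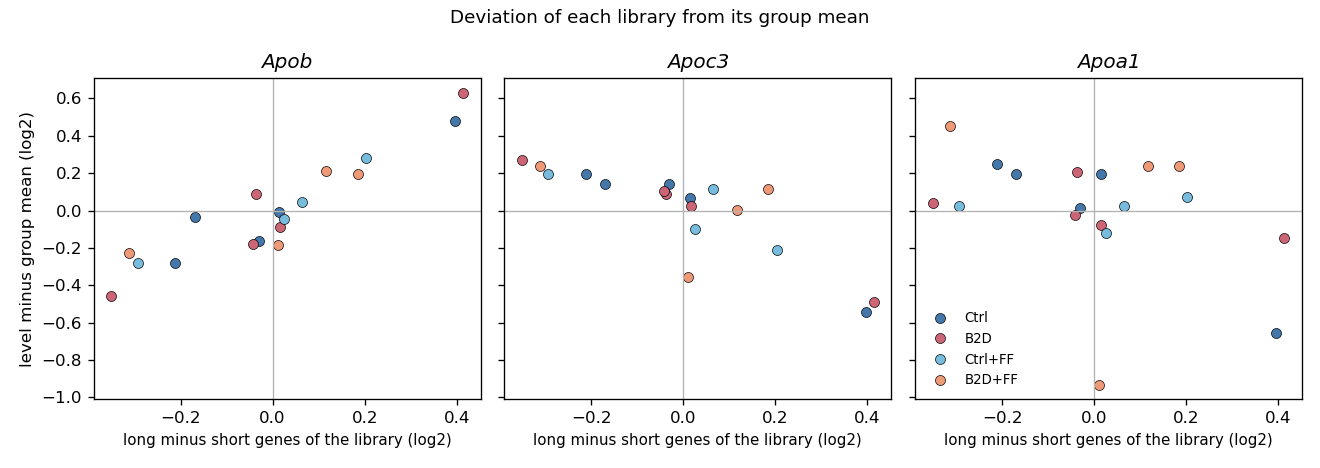
Level of Apob, Apoc3 and Apoa1 in each library relative to its group mean (log2, vertical axis) against the library's difference between long and short genes, also relative to the group mean (log2, horizontal axis), 1 point per mouse and a colour per group. Points of Apob climb and those of Apoc3 descend from left to right, Ctrl 5 and B2D 3 lie at the far right, and B2D+FF 2 is the lowest point of Apoa1 near the middle of the axis.

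Levels of the 10 genes, as listed, spanned more than 3 orders of size in a liver, but only with Apoc2 included. The level of Apoc2, and so its place in the order, is uncertain: 79.5% of its exon bases also lie in exons of Gm44805, another gene model. Without Apoc2 the Ctrl means ran from 74.8 FPKM (Mttp) to 10333 (Apoe). In Ctrl, Apoe was the most abundant at 10333 ± 989 FPKM (mean ± SD, n = 5), followed by Apoa2 at 8803 ± 1486, Apoa1 at 8308 ± 1851, Apoc1 at 3654 ± 659 and Apoc3 at 1206 ± 223. Apoa4 at 783 ± 264, Apoa5 at 736 ± 133 and Apob at 394 ± 86.0 came next, then Mttp at 74.8 ± 6.97 and Apoc2 at 4.77 ± 2.21. This order held in 5 of 5 Ctrl mice for 6 of the 9 neighbouring pairs, and the exceptions were Apoa2 over Apoa1 (3 mice), Apoa4 over Apoa5 (3 mice) and Apoa5 over Apob (4 mice). In B2D the order was the same but for Apoa4, at 1069 ± 787 FPKM, which stood above Apoc3, at 1057 ± 191, in only 2 of 5 mice, and Apoa2 stood above Apoa1 and Apoa5 above Apob in 4 of 5. With fenofibrate Apoa2 was the most abundant in both groups and above Apoe in 4 of 4 mice of each. There Apoa4 stood below Mttp in all 8 mice and above only Apoc2.

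**Figure D2:**
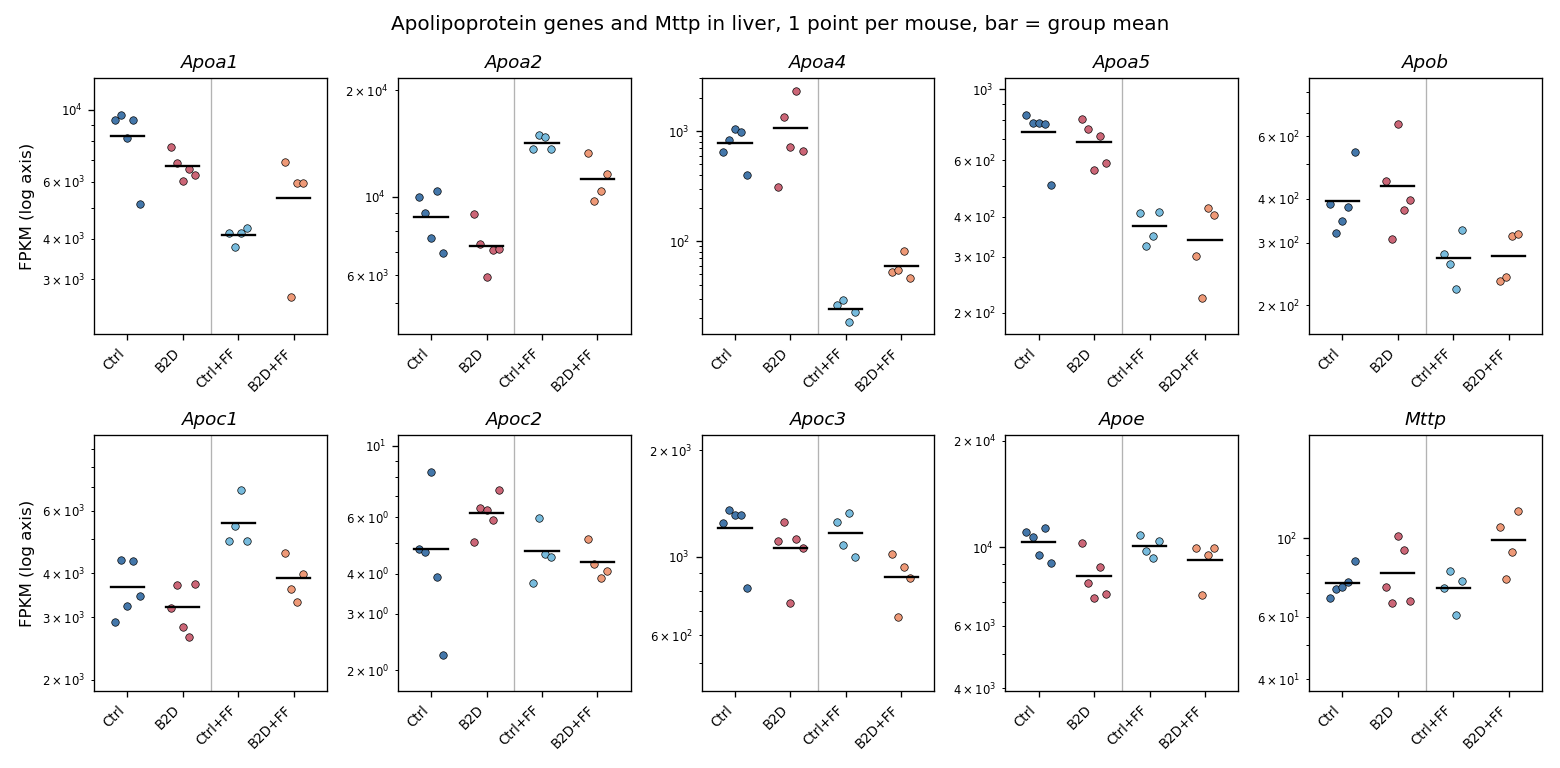
FPKM of the 10 genes (vertical axes, log scale, a range of its own for each gene) in the 4 groups, 1 point per mouse, with a bar at the group mean and a line between the 2 tables. Apoa4 spans the widest range, from 18.6 FPKM in a Ctrl+FF mouse to 2312 in a B2D mouse, and its Ctrl+FF and B2D+FF points do not overlap.

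Apoc2, whose product is the activator of lipoprotein lipase, was listed at 2.24 to 8.29 FPKM, or 38 to 133 reads per library, and its level is uncertain. In GENCODE vM21, whose exon lengths equalled those of the table for 98.0% of the genes found in it, 646 of the 813 exon bases of Apoc2 (79.5%) also lie in exons of Gm44805, a gene model on the same strand that runs on into Apoc4. Gm44805 itself averaged 0.140 FPKM without and 0.00790 FPKM with fenofibrate, while Apoc4, with 4.69% of its exon bases shared, stood at 271 and 290 FPKM. How reads in shared exons were assigned is not given in the sources used here, and its part in the low level of Apoc2 was not tested. Apoa4 shares 1266 of its 1815 exon bases (69.8%) with Gm47528 and Gm10680 on the opposite strand. Gm47528 averaged 2.48 FPKM without and 0.227 FPKM with fenofibrate, and Gm10680 was listed at 0 in both tables. The library kit named in the labels is not a directional one, so in the shared bases reads of Apoa4 and of these partners cannot be told apart. The other 30.2% of its exon bases are its own. Apoa5 shares 20.8% of its exon bases and Mttp 9.49% with genes of the opposite strand, and the other 6 members share none.

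The first comparison asked whether the diet alone altered these genes. After 1 month without fenofibrate, none of the 10 members passed the test between B2D and Ctrl (limma, adjusted p under 0.05), where 2.70% of the 11574 genes tested did. At an unadjusted p under 0.05, 1 member, Apoe, was called, against 18.4% of all genes. The groups overlapped for all 10 members, while they did not overlap for 4.98% of all genes. Differences on the log2 scale were below 0 for 6 members and above 0 for 4, with a median of -0.14 against -0.0013 for all genes tested.

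Of the HDL apolipoproteins, Apoa1 was measured at 9295, 9622, 8184, 9294 and 5143 FPKM in Ctrl 1 to 5 and at 7704, 6868, 6036, 6580 and 6319 in B2D 1 to 5. Ctrl 1 to 4 were above every B2D mouse and Ctrl 5 was below them all. The log2 difference was -0.28 (SE 0.17, 95% interval -0.65 to 0.10, limma adjusted p = 0.41). Without Ctrl 5 it was -0.44, with a limma adjusted p of 0.079. Apoa2 was measured at 10007, 9028, 7666, 10388 and 6924 FPKM in Ctrl and at 8968, 7340, 5925, 7060 and 7140 in B2D, with the groups overlapping widely (log2 difference -0.27, SE 0.15, 95% interval -0.60 to 0.06, limma adjusted p = 0.36).

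Apoe was the member with the smallest p. It stood at 11055, 10706, 9531, 11319 and 9053 FPKM in Ctrl and at 10310, 7955, 7181, 8795 and 7388 in B2D. B2D 2 to 5 were below every Ctrl mouse, and B2D 1 lay within the Ctrl range. For Apoe the log2 difference came to -0.32 (SE 0.13, 95% interval -0.60 to -0.04, limma adjusted p = 0.22). Apoc1, its neighbour on chromosome 7, which activates lecithin-cholesterol acyltransferase and slows particle uptake, ranged from 2910 to 4355 FPKM in Ctrl and from 2640 to 3730 in B2D, a difference of -0.18 (95% interval -0.52 to 0.16, limma adjusted p = 0.56).

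Apoa4 was the member with the widest spread between mice of the B2D diet. It was measured at 653, 822, 1054, 987 and 401 FPKM in Ctrl and at 311, 1338, 724, 2312 and 659 in B2D. The lowest and the highest of the 10 mice were both on the B2D diet, and the highest value there was 7.43 times the lowest. Between the diets it differed by 0.21 on the log2 scale, with an SE of 0.46 (95% interval -0.79 to 1.204, limma adjusted p = 0.84), an interval that holds changes of either sign. Apoa5 and Apoc3, a pair with opposite known effects on lipoprotein lipase, ranged from 501 to 831 and from 814 to 1357 FPKM in Ctrl and from 560 to 807 and from 740 to 1255 FPKM in B2D. Their differences were -0.10 (95% interval -0.45 to 0.26, limma adjusted p = 0.79) and -0.19 (95% interval -0.57 to 0.20, limma adjusted p = 0.60). The difference of Apoc2 was 0.39 (95% interval -0.09 to 0.87, limma adjusted p = 0.36), on a level of uncertain meaning as described above.

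The assembly genes did not pass the test either. Apob was measured at 386, 319, 346, 378 and 540 FPKM in Ctrl and at 448, 307, 652, 372 and 396 in B2D. Ctrl 5 and B2D 3, the libraries in which long genes were high, were the highest of their groups. Its log2 difference was 0.12 (SE 0.20, 95% interval -0.31 to 0.56, limma adjusted p = 0.79), and with the long-minus-short difference of each library as a covariate it was -0.18 (limma adjusted p = 0.38). Mttp ranged from 67.7 to 86.3 FPKM in Ctrl and from 65.7 to 101 in B2D, with a difference of 0.07 (95% interval -0.23 to 0.38, limma adjusted p = 0.81).

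In the second comparison, B2D+FF mice were set against Ctrl+FF mice to ask whether the diets differed under fenofibrate. Apoa4 was higher in B2D+FF and was the only member of the 10 to pass the test, where 4.45% of the 11878 genes tested passed. Its level was 26.6, 29.1, 18.6 and 23.0 FPKM in Ctrl+FF 1 to 4 and 53.1, 55.1, 82.2 and 46.5 FPKM in B2D+FF 1 to 4. Every B2D+FF mouse was above every Ctrl+FF mouse, and the lowest of them stood at 46.5 FPKM against 29.1 in the highest Ctrl+FF mouse. The log2 difference was 1.24 (SE 0.19, 95% interval 0.81 to 1.66, limma adjusted p = 0.010), a 2.35-fold rise on this scale, from 24.3 ± 4.56 to 59.2 ± 15.7 FPKM (SD, n = 4 and 4). Between 587 and 3087 reads lay behind each value. The call was lost when all 18 libraries entered 1 fit, which adds the spread of Apoa4 between the mice without fenofibrate (limma adjusted p = 0.14), and it was kept in the other 16 alternatives, the 8 fits without 1 library among them (log2 difference 1.07 to 1.34).

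**Figure D3:**
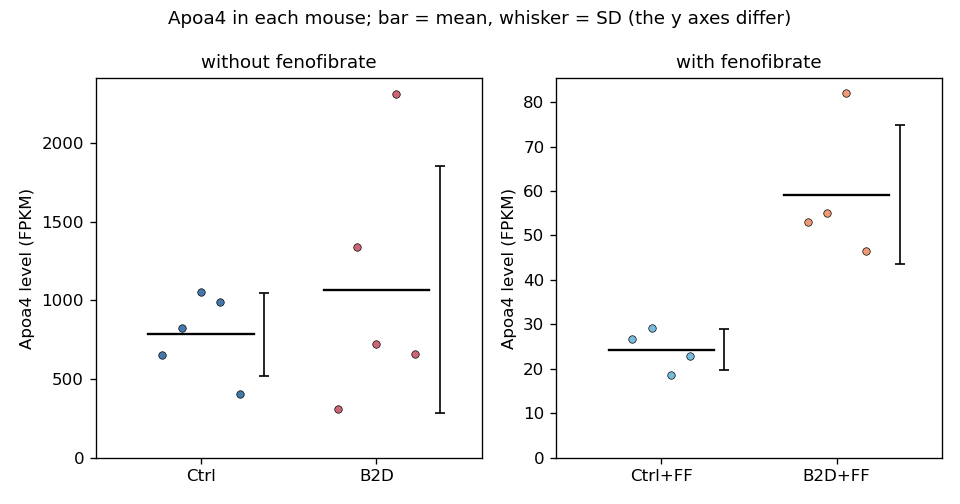
FPKM of Apoa4 (vertical axes, linear, from 0, and not to the same scale) in each mouse without fenofibrate (left) and with it (right), with a bar at the mean and a whisker of 1 SD. On the right every B2D+FF point, from 46.5 to 82.2 FPKM, is above every Ctrl+FF point, and on the left the B2D points reach from below to above all Ctrl points.

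Among the members that did not pass, 4 more were called at an unadjusted p under 0.05, together 5 of 10 with Apoa4, against 21.2% of all genes. The groups did not overlap for 3 members, Apoa4, Apoa2 and Apoc1, against 14.3% of all genes. Of the log2 differences 6 were below 0 and 4 above, with a median of -0.11 against 0.01 for all genes tested.

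The small apolipoproteins Apoa2, Apoc1 and Apoc3 were lower in B2D+FF on average, none past the threshold. Apoc1 was measured at 4945, 5435, 6886 and 4930 FPKM in Ctrl+FF and at 4573, 3608, 3306 and 3969 in B2D+FF, with no overlap. Its log2 difference was -0.52 (SE 0.15, 95% interval -0.86 to -0.17, limma adjusted p = 0.090), and it passed at a limma adjusted p of 0.04996 among genes of at least 5 FPKM and of 0.025 with the library difference of long and short genes as a covariate. Apoa2 stood at 13661, 14930, 14746 and 13631 FPKM in Ctrl+FF and at 13320, 9712, 10366 and 11598 in B2D+FF. The groups did not overlap, by a margin of B2D+FF 1 only (log2 difference -0.35, SE 0.13, 95% interval -0.64 to -0.05, limma adjusted p = 0.17). Apoc3 was measured at 1252, 1077, 1325 and 996 FPKM against 1018, 674, 936 and 867, where B2D+FF 1 was within the Ctrl+FF range (-0.42, SE 0.15, limma adjusted p = 0.16).

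Apoa1 and Mttp were higher on average in B2D+FF, with no call in the fit of all 8 libraries. Apoa1 stood at 4173, 3773, 4172 and 4314 FPKM in Ctrl+FF and at 6894, 2640, 5938 and 5953 in B2D+FF. The B2D+FF mice 1, 3 and 4 were above every Ctrl+FF mouse and B2D+FF 2 was below them all. The log2 difference was 0.30 (SE 0.27, 95% interval -0.32 to 0.91, limma adjusted p = 0.58), and without B2D+FF 2 it was 0.61 and passed the test (limma adjusted p = 0.022). Mttp was measured at 72.4, 80.7, 60.6 and 75.7 FPKM in Ctrl+FF and at 107, 76.98, 91.3 and 119 in B2D+FF, where B2D+FF 2 again lay within the Ctrl+FF range and the other B2D+FF mice lay above it. Its log2 difference was 0.43 (SE 0.15, 95% interval 0.10 to 0.77, limma adjusted p = 0.14).

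Apob, Apoe, Apoa5 and Apoc2 differed by less between the diets under fenofibrate. Apob was measured at 278, 261, 222 and 327 FPKM in Ctrl+FF and at 233, 241, 313 and 317 in B2D+FF, with the groups interleaved (0.02, 95% interval -0.33 to 0.37, limma adjusted p = 0.96). Apoe stood at 10851, 9757, 9356 and 10438 FPKM against 9950, 7338, 9551 and 9986, and only B2D+FF 2 was below the Ctrl+FF range (-0.14, 95% interval -0.45 to 0.16, limma adjusted p = 0.59). Apoa5 ranged from 325 to 412 FPKM in Ctrl+FF and from 223 to 427 in B2D+FF (-0.18, 95% interval -0.64 to 0.28, limma adjusted p = 0.66), and the difference of Apoc2 was -0.09 (95% interval -0.37 to 0.19, limma adjusted p = 0.73).

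**Figure D4:**
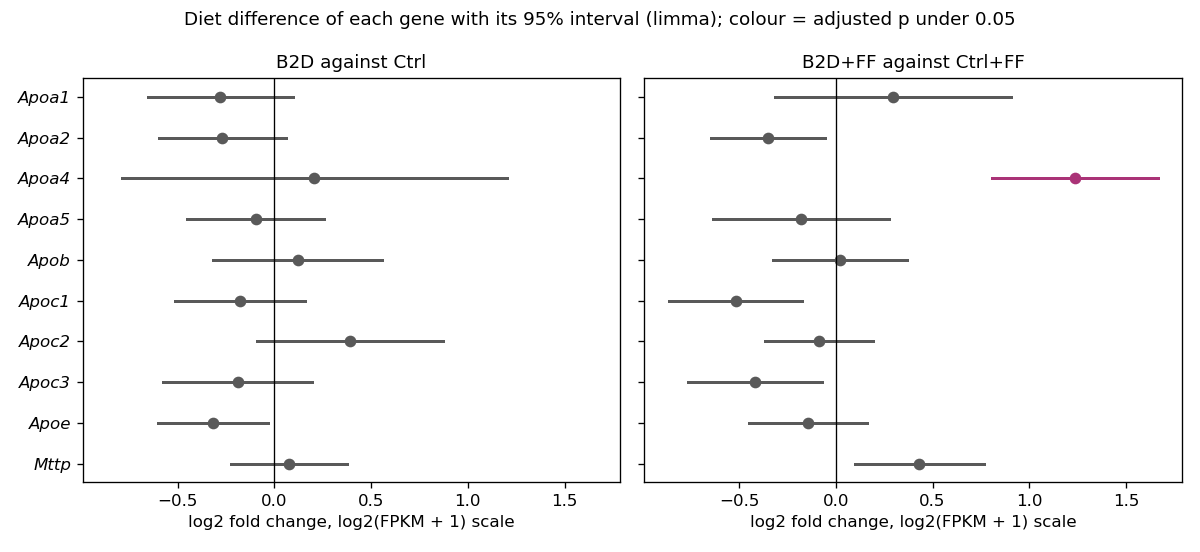
Log2 difference between the diets for each gene (point) with its 95% interval (line) from limma, without fenofibrate (left) and with it (right), on the log2(FPKM + 1) scale. The coloured point, Apoa4 at 1.24 under fenofibrate, is the only one with an adjusted p under 0.05, and its interval without fenofibrate is the widest of the left panel.

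Whether the diet effect itself differed between the experiments was tested in 1 fit of all 18 libraries. None of the 10 members passed (limma, adjusted p under 0.05), where 0.228% of the 11862 genes tested did, and none was called at an unadjusted p under 0.05, against 11.9% of all genes. For Apoa4 the effect with fenofibrate minus that without was 1.03 on the log2 scale (SE 0.59, 95% interval -0.20 to 2.26, limma adjusted p = 0.50). The rise of Apoa4 under fenofibrate was therefore not shown to differ from its change without it, given the spread of the first experiment. Apoa1, with a negative difference in the first experiment and a positive one in the second, had a difference of effects of 0.58 (SE 0.32, 95% interval -0.10 to 1.25, limma adjusted p = 0.49).

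Set side by side across the experiments, the levels of the members moved apart. Apoa4 averaged 783 FPKM in Ctrl and 24.3 in Ctrl+FF, 32.2 times less, and 1069 in B2D and 59.2 in B2D+FF, 18.05 times less. Among the 11031 genes tested in both tables, its log2 difference was the second most negative between the control groups (-4.89) and the third between the B2D groups (-3.86), where the median gene differed by -0.04 in both. All 8 mice with fenofibrate were below all 10 without it for Apoa4, and the same held for its neighbour Apoa5, at 736 and 374 FPKM in the control groups and 684 and 339 in the B2D groups. The other 8 members overlapped between the experiments, so that 2 of 10 did not, against 10.8% of the 11031 genes (4.28% in this direction). Apoa1 averaged 8308 and 4108 FPKM in Ctrl and Ctrl+FF, and 6701 and 5356 in B2D and B2D+FF, and Apoc3, the remaining gene of that cluster, 1206 and 1162, and 1057 and 874.

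Apoa2 and Apoc1 were higher in the second experiment on average, at 14242 and 5549 FPKM in Ctrl+FF against 8803 and 3654 in Ctrl, and at 11249 and 3864 in B2D+FF against 7287 and 3215 in B2D. Apoe was close to level, at 10333 and 10100 FPKM in the control groups and 8326 and 9206 in the B2D groups. Apob averaged 394 and 272 FPKM in the control groups and 435 and 276 in the B2D groups, while Mttp averaged 74.8 and 72.4, and 79.8 and 98.7. Ratios within a library do not depend on its scaling, but those of genes of unequal length can still follow the long-minus-short difference described above. That difference was taken relative to each table, so it was not compared between the experiments. Apoa2 was 0.937 to 1.35 times as high as Apoa1 in the Ctrl mice and 0.982 to 1.16 times in B2D, but 3.16 to 3.96 times in Ctrl+FF and 1.75 to 3.68 times in B2D+FF, so that no mouse of the second experiment lay in the range of the first. Mttp over Apob was 0.155 to 0.249 in the 10 mice without fenofibrate and 0.232 to 0.460 in the 8 with it.

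**Figure D5:**
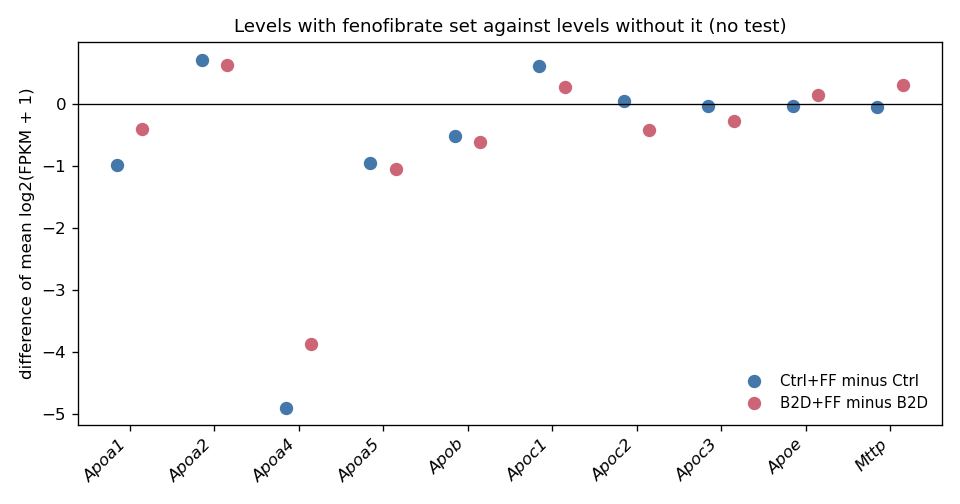
Difference of the mean log2(FPKM + 1) of each gene between groups with and without fenofibrate (vertical axis), for the control diet (blue) and the B2D diet (red), with no test since fenofibrate is not the only thing that differs between the experiments. Apoa4 lies at -4.89 and -3.86, far below the other 9 genes, and Apoa2 and Apoc1 lie above 0 on both diets.

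The genes whose levels followed Apoa4 most closely were looked for among 4420 others with a mean of at least 5 FPKM in both tables, by the smaller of the Pearson r over the 10 libraries and over the 8. They were Lgals8, a galectin (r = 0.89 over 10 and 0.78 over 8 libraries, with a Spearman rho of 0.84 and 0.57), Tbc1d15, a Rab GTPase-activating protein (r = 0.92 and 0.77, rho = 0.94 and 0.52), and Slc25a47, a liver mitochondrial carrier (r = 0.76 and 0.84, rho = 0.77 and 0.69). By rank the likeness over the 8 libraries was weaker for all 3. These values are a description over libraries that also differ by diet. Slc25a47 stood at 180, 166, 193 and 218 FPKM in Ctrl+FF and at 416, 287, 569 and 559 in B2D+FF, with no overlap. Tbc1d15 did not overlap either (11.8 to 13.6 against 16.5 to 18.8 FPKM), while Lgals8 did (20.6 to 23.5 against 23.4 to 29.3). All 3 were chosen for likeness to Apoa4 in these same libraries, so a separation by diet is partly built into the choice. Within groups, over all 18 libraries, the members that went together most were Apoa1 with Apoa5 (r = 0.81, rho = 0.72), Apoa5 with Apoe (r = 0.78, rho = 0.65) and Apoa1 with Apoe (r = 0.78, rho = 0.78), and Apoc3 ran against Apob (r = -0.74, rho = -0.72), all over points that share the libraries described above.

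Of the genes with a start within 100 kb of a member, 50 in all, 25 were tested without fenofibrate and 24 with it. A single one was called in each comparison, against 2.70% and 4.45% of all genes. It was 0610031O16Rik, an antisense RNA gene near Mttp (chromosome 3, 138210716 to 138240405). Its level was lower in B2D (log2 difference -0.99, limma adjusted p = 0.012) and in B2D+FF (log2 difference -0.83, limma adjusted p = 0.045). It spans Adh7, which lies on the other strand. Whether their exons overlap was not checked, so it is not known whether a kit that is not directional mixes their reads. Near Apoa4 only Zpr1 reached a mean of 5 FPKM, with differences of -0.33 (limma adjusted p = 0.35) and -0.12 (limma adjusted p = 0.58). Others of at least 5 FPKM in a table (Sdhc, Ufc1, Nr1i3, Fcer1g, Gm48633, Apoc4, Nectin2, Clptm1, Tomm40, Gemin7, Cblc and Adh7) had no call in either comparison.

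Other proteins of the particles were counted next, from lists of general knowledge. Of 15 tested genes among the other apolipoproteins and HDL proteins, none was called without fenofibrate by limma (5 at an unadjusted p under 0.05) and 3 were lower with it, with list medians of -0.22 and -0.16 against -0.0013 and 0.01 for all genes. The 3 were serum amyloid A genes, whose products travel on HDL, and of them Saa1 and Saa2 encode acute-phase proteins. Saa4 averaged 55.5 ± 4.87 FPKM (SD, n = 4) among Ctrl+FF mice against 18.7 ± 4.89 (n = 4) among B2D+FF mice, a log2 difference of -1.55 (SE 0.17, limma adjusted p = 0.0025), and without fenofibrate it stood at 73.9 ± 12.6 and 35.6 ± 14.97 (n = 5 and 5), a difference of -1.13 just outside the threshold (limma adjusted p = 0.0505). Saa2, at 4.52 ± 2.41 and 0.461 ± 0.098 FPKM, fell by 1.81 on the log2 scale (limma adjusted p = 0.010), and Saa1, at 8.22 ± 4.51 and 1.99 ± 1.17, fell by 1.58 (limma adjusted p = 0.039). These 2 genes are near-identical copies at low levels, so how reads were split between them is uncertain, and the call of Saa1 was lost in 9 of its 17 alternatives.

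Of the 23 genes of VLDL assembly and secretion, 1 was higher and 1 lower in B2D without fenofibrate and none was called with it. Over all genes, 2.70% and 4.45% were called. An unadjusted limma p under 0.05 was reached by 5 of the 23 in each comparison, against 18.4% and 21.2% of all genes. The list medians were -0.07 and 0.05. Tm6sf2, which helps to lipidate VLDL, averaged 12.9 ± 1.83 FPKM (SD, n = 5) in Ctrl and was higher, 19.0 ± 2.33 (n = 5), under B2D, a rise of 0.53 (SE 0.12, limma adjusted p = 0.040). Aadac, a microsomal lipase, stood at 311 ± 59.6 and 198 ± 24.0 FPKM, a log2 difference of -0.63 (SE 0.14, limma adjusted p = 0.038). Both calls were close to the threshold: that of Tm6sf2 was lost in 13 of 20 alternatives, all 10 fits without 1 library included, and that of Aadac in 11 of 20. None of the 4 genes that edit the Apob transcript was called in either comparison by limma. At an unadjusted limma p under 0.05 there was 1 in each, against 18.4% and 21.2% of all genes.

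Of the 10 lipases, cofactors and inhibitors, Lipc, the hepatic lipase of HDL and remnants, was lower in B2D+FF, at 28.8 ± 4.89 FPKM against 44.4 ± 5.76 in Ctrl+FF (-0.61, SE 0.14, limma adjusted p = 0.045, lost in 7 of 17 alternatives). The other 9 were not called, and none of the 10 was called without fenofibrate, where 4.45% and 2.70% of all genes were. An unadjusted limma p under 0.05 was reached by 2 of the 10 without fenofibrate and 1 with it, against 18.4% and 21.2% of all genes. The list medians were 0.03 and -0.03. None of 17 lipoprotein receptors and efflux genes was called by limma in either comparison, against 2.70% and 4.45% of all genes. Their medians were 0.01 and -0.21 against -0.0013 and 0.01 for all genes. At an unadjusted p under 0.05 there were 3 of the 17 without fenofibrate, where 18.4% of all genes were called, and 9 of the 17 with it, where 21.2% were.

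Transcription factors known to act on apolipoprotein genes were not called without fenofibrate, 0 of 25 against 2.70% of all genes (5 at an unadjusted p under 0.05 against 18.4%, limma). With fenofibrate 1 was higher and 3 were lower in B2D+FF, 4 of 25 against 4.45% of all genes (11 at an unadjusted p under 0.05 against 21.2%). The medians were 0.04 and -0.07, against -0.0013 and 0.01 for all genes. Srebf1, the regulator of lipid synthesis, fell from 27.9 ± 3.01 FPKM (Ctrl+FF, SD, n = 4) to 9.69 ± 1.97 (B2D+FF, n = 4) (-1.44, SE 0.14, limma adjusted p = 0.0021), and Mlxipl, the carbohydrate-responsive factor ChREBP, at 31.0 ± 1.63 and 17.0 ± 1.83 (-0.84, SE 0.09, limma adjusted p = 0.0027). Both kept their call in all 17 alternatives. Cebpa, a factor of hepatocyte identity, was lower (-0.57, limma adjusted p = 0.020) and Esrra, the estrogen-related receptor α, higher (0.53, limma adjusted p = 0.018), calls lost in 5 and 4 of 17 alternatives. Ppara, the target of fenofibrate, averaged 55.3 ± 3.17 FPKM under Ctrl+FF against 45.2 ± 7.05 under B2D+FF (-0.30, 95% interval -0.56 to -0.03, limma adjusted p = 0.19) and at 47.3 ± 3.29 and 46.7 ± 7.599 in Ctrl and B2D (-0.03, limma adjusted p = 0.92). Hnf4a differed by 0.45 and 0.35 (limma adjusted p = 0.31 and 0.13) and Nr1d1, a circadian repressor known to act on Apoc3, by 0.49 and 0.43 (limma adjusted p = 0.094 and 0.34). Nr1d1 averaged 18.9 and 27.2 FPKM in Ctrl and B2D, and 5.07 and 7.28 in Ctrl+FF and B2D+FF. No gene of these lists was called in the test of the difference between the effects.

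Markers of other cells of the liver were read beside these differences. Of the 6 Kupffer cell markers 1, Clec4f, was lower in B2D without fenofibrate (-0.47, limma adjusted p = 0.041), against 2.70% of all genes called. Vsig4 (-0.07), Cd5l (-0.25), Adgre1 (-0.23) and Timd4 (-0.16) were below 0 with no call. Marco went the other way (0.95, limma adjusted p = 0.20). The summed levels were 72.4 to 93.4 FPKM in Ctrl and 53.8 to 86.3 in B2D. None of the 6 was called in B2D+FF against Ctrl+FF. There Clec4f (-0.62, limma adjusted p = 0.11), Vsig4 (-0.34), Cd5l (-0.30), Adgre1 (-0.27) and Timd4 (-0.19) were below 0. Marco was again above it (0.84, limma adjusted p = 0.55). With fenofibrate, the hepatocyte markers Ass1 and Arg1 were higher in B2D+FF (2 of 7), as was Lyve1 of the 5 endothelial markers (0.77), against 4.45% of all genes called. Stab2 (-0.03), Clec4g (-0.20), Pecam1 (-0.004) and Oit3 (-0.12) had log2 differences below 0 and were not called. The endothelial sums were 25.6 to 31.0 FPKM in Ctrl+FF and 24.5 to 36.1 in B2D+FF. The summed hepatocyte level was 18893 to 21980 FPKM in Ctrl+FF and 17124 to 18146 in B2D+FF, with no overlap. Most of that sum is Alb, and the 7 markers did not move together. Alb (-0.35) and Ttr (-0.34) had log2 differences below 0, Cps1 (0.66), Ass1 (0.75), Arg1 (0.64) and Hnf4a (0.35) had differences above 0, and Fgb was at 0.01, with Ass1 and Arg1 alone past the threshold. Of the 4 adipocyte markers only 1, Cfd, was tested with fenofibrate, and it was lower in B2D+FF (-2.21, limma adjusted p = 0.018). The marker sums were 6.21 to 22.4 FPKM against 0.597 to 4.46. Most of each mean sum was Cfd, at 14.0 and 2.29 FPKM, while Adipoq averaged 0.65 and 0.058. Plin1 and Lep stayed below 0.1 FPKM on average there, and in the first experiment B2D 2 alone reached a sum of 35.99 FPKM. The part of these markers in the differences of the members was not tested.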

How the data were processed

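mRNA libraries of 18 mouse livers were compared in 4 groups taken from the labels (5 Ctrl, 5 B2D, 4 Ctrl+FF, 4 B2D+FF). The authors aligned reads with STAR to mm10, used featureCounts for the reads of each gene and DESeq2 for their own tests, and deposited FPKM in a table per experiment, each normalized on its own. Aligner settings and the use of strand in counting are not given in the sources used here. Values were used as deposited. FPKM times gene length gave whole multiples of 1 step in each library (100% of values under 2000 reads, within 0.1 of a read), from which reads were recovered. The library size implied by the step was not the sum of the recovered reads. It was 17069373 against 15320729 reads in B2D 2 and 17383878 against 18075772 reads in Ctrl 2. Depth limits genes with few reads, here Apoc2.

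The test was limma 3.58.1 (R 4.3.3, moderated with a trend) on log2(FPKM + 1), for genes whose mean FPKM reached 0.5, each table alone and the difference of the diet effects in 1 fit of all 18 libraries, with Benjamini-Hochberg adjustment over all genes tested and a threshold of 0.05. This scale understates changes of low genes. The fits were tested on simulated data. Where nothing says more, p-values measure the spread between these mice.

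The members and the 6 other gene lists and 9 marker lists, written from general knowledge, were chosen with earlier results of these data known. Of the lists, genes past the threshold were named, up to 5 a list, with Ppara, Hnf4a and Nr1d1, as were genes near a member with at least 5 FPKM (not all are reported here) and the 3 genes most like a member past the threshold. Libraries were matched by mouse number, and mice are numbered within groups. As alternatives, the pseudocount was set to 0.1 and the filter dropped or raised to 5 FPKM, next to upper quartile rescaling (75th percentile), quantile normalization, array weights, limma voom on the recovered reads, unadjusted p, 1 fit of all libraries, and each library left out. After seeing the data, a covariate for long against short genes and a fit without Ctrl 5 and B2D 3 were added. Promoters were read from RefSeq (GRCm38.p6) and exon overlaps from GENCODE vM21. Python 3.11.15 and matplotlib 3.10.9 drew the plots.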

Additional observations from a re-analysis of the deposited data

Results flagged for a closer look

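Of the 40 sets of values tested (10 genes in 4 groups), 3 held a mouse set apart from the others of its group by Dixon's criterion, which by chance happens in about 1 in 20 sets. Apoa5 in Ctrl 5 stood at 501 FPKM, while the nearest of the other Ctrl mice was at 779 and the farthest at 831. Apoc3 in Ctrl 5 stood at 814 FPKM, with the nearest at 1243 and the farthest at 1357. Both are genes of the chromosome 9 cluster, and Ctrl 5 is the library whose long genes were high against its short genes (0.27, against -0.34 to -0.11 in the other Ctrl libraries). Apoe in B2D+FF 2 stood at 7338 FPKM, with the nearest of its group at 9551 and the farthest at 9986. In that library the difference of long and short genes, 0.02, lay within the range of its group. The part of these library differences in the 3 values was not tested.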

How the results depend on the processing

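Without fenofibrate no member passed in the main fit or under any alternative but the unadjusted threshold, which called 1 (Apoe), and the fits without 1 library called 0 to 0. With fenofibrate the main count of 1 (Apoa4) became 5 at the unadjusted threshold, 2 among genes of at least 5 FPKM and 2 with the library difference of long and short genes as a covariate (Apoa4 and Apoc1 in both), 0 with all 18 libraries in 1 fit, and 1 to 2 without 1 library, where Apoa1 passed without B2D+FF 2. The difference of the effects called 0 members under all alternatives, and 0 to 0 without 1 library. No value past the threshold changed its sign. Of the values below it, 9 of 200 without fenofibrate (Apoa4, Apoa5, Apob, Apoc3 and Mttp), 6 of 150 with it (Apoa5, Apob and Apoc2) and 6 of 270 of the differences of effects did. Upper quartile rescaling moved the median of all genes to 0.02, -0.03 and -0.06 in the 3 comparisons and quantile normalization to 0.01, 0.02 and 0.0038. No paired analysis was possible because the labels give each mouse a number of its own and no numbers are shared between groups. Depth limits Apoc2, with 38 to 133 reads per library, and Apoa4 had at least 587.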
